A study of Saccharomyces cerevisiae with 21 samples.

Results

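The libraries described here are the 3 nascent RNA-seq libraries of RAP1-AID cells given DMSO and the 3 libraries of untreated WT cells, 6 of the 21 libraries of the series, taken by their sample labels. The comparison asks what the degron allele of RAP1, the auxin receptor and the solvent changed before any auxin was added. Nascent RNA was the RNA bound to RNA polymerase II (Pol II), which was purified through a FLAG tag on its Rpb3 subunit. All strains were labelled as MATa derivatives of BY4741 with his3D1, leu2D0, met15D0, ura3D0 and RPB3-3xFLAG::NATMX, and all were grown in YPD. The RAP1-AID strain also carried RAP1-3V5-IAA7::KANMX6, in which Rap1 bears the degron at its own locus, and LEU2::pGPD1-osTIR::LEU, in which the GPD1 promoter drives the auxin receptor osTIR. The WT strain had neither, and received no DMSO, so the effects of the tag, of osTIR, of its marker and of DMSO cannot be told apart between these groups. A further group of 3 libraries, the STH1-AID control, carried the same osTIR construct and received DMSO, but bore the degron on Sth1, the ATPase of the RSC chromatin remodeller, as STH1-3V5-IAA7::KanMX6. A 4th strain, RAP1-AID/STH1-AID, carried both degrons and also had a DMSO control. It was set beside the others in a few sentences.

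Rap1 is a general regulatory factor that binds the promoters of most ribosomal protein genes and of many glycolytic genes, where it keeps nucleosomes away and recruits activators. The same protein binds the telomeric repeats, where it recruits the Sir proteins, which silence genes close to chromosome ends and the silent mating cassettes, and the Rif proteins, which limit telomere length. An auxin-inducible degron lets the osTIR ubiquitin ligase mark the tagged protein for the proteasome when auxin is present.

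The 6 libraries held between 19597720 and 23182315 expected counts each. Of these, between 91.8% and 95.1% fell on protein-coding genes and between 4.20% and 7.5% on small nuclear and nucleolar RNA genes, and the SNR19 gene, which encodes the U1 spliceosomal RNA, alone took between 2.78% and 4.93%. Libraries of one group correlated more closely (Pearson's r between 0.992 and 0.994 over genes, on log CPM, with genes not independent) than libraries of the 2 groups (0.958 to 0.967). Levels are given as CPM, counts relative to a common library size after edgeR's TMM scaling. The factors of that scaling were 0.927 to 0.981 in WT, 1.05 to 1.10 in the RAP1-AID control and 0.984 to 1.06 in the STH1-AID control. Because cultures were measured in bulk, fewer cells with a transcript and less of that transcript per cell cannot be told apart.

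The strain labels were checked first at the loci they name. RAP1 (YNL216W, chromosome XIV, 241689-244172 in build R64) measured 363, 333 and 368 CPM in the 3 WT libraries and 636, 538 and 621 CPM in the 3 RAP1-AID control libraries. Its level rose by 0.76 on the log2 scale (SE 0.11, n = 3 per group, adjusted p = 1.02e-05, edgeR's quasi-likelihood test), and the groups did not overlap. The STH1-AID control, where Rap1 was untagged, measured 346, 319 and 329 CPM, and the RAP1-AID/STH1-AID control, where it was tagged, between 566 and 623 CPM. STH1 was at 777, 705 and 730.2 CPM in WT, 594, 493 and 528 CPM in the 3 RAP1-AID libraries and 1114, 1119.8 and 1226 CPM in the STH1-AID control. It thus fell by 0.45 between WT and the RAP1-AID control (adjusted p = 0.000592, edgeR), and of these 3 groups the one in which it is tagged was the highest. RPB3, tagged in every strain, did not pass the test (log2 fold change 0.07, adjusted p = 0.612).

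The marker genes gave a mixed picture. LEU2 had 0 counts in every library, those labelled with a LEU2 construct included, so its counts do not bear out that label. There were 0 counts too for LYS2, which no label lists as deleted, while URA3 had 2 counts in 1 WT library and 0 in the others compared. HIS3 did not pass the test (48.1, 44.4 and 48 CPM in WT and 48.4, 54.5 and 52.2 CPM in the RAP1-AID control). MET17, the gene that met15D0 removes, went against its label: it was transcribed at 55.9, 45.7 and 63.8 CPM in WT and 39.4, 48 and 42.7 CPM in the RAP1-AID control, against 0.0482, 0.046 and 0.0452 CPM in the STH1-AID control. WT and the RAP1-AID control overlapped (-0.35, adjusted p = 0.0218, and between 0.0621 and 0.181 without replicate 1 or 3 of either group). The STH1-AID strain therefore differs from the other strains at MET17 as well as in the protein tagged. This bears on every value set against it below, and its part in them was not tested.

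**Figure D1:**
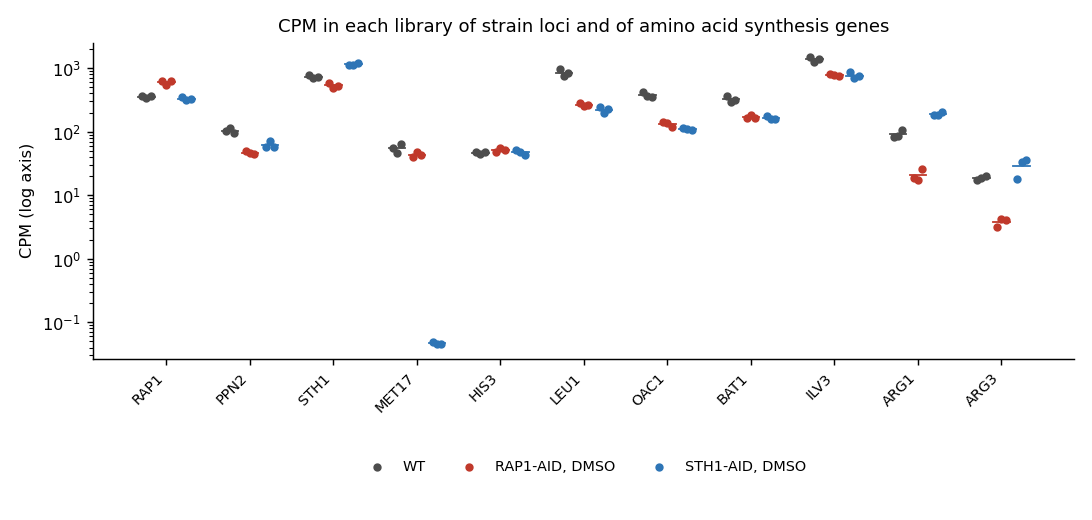
Each point is the CPM of 1 library (log axis) and each short line the mean of 3, for WT, the RAP1-AID control and the STH1-AID control. RAP1 was higher only in the RAP1-AID libraries of these 3 groups, MET17 was near 0 in the STH1-AID libraries alone, and LEU1, OAC1, BAT1 and ILV3 were lower in both controls than in WT.

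The genes beside RAP1 were examined because the allele carries a marker cassette there. The paper describes the degron as a C-terminal tag, which places the cassette after the end of RAP1, on the side of IES2 and PEX17. PPN2, which lies just before RAP1 and encodes a vacuolar polyphosphatase, fell by 1.15 (SE 0.15, adjusted p = 5.17e-06, edgeR), from 103, 115 and 94.6 CPM to 50.5, 45.5 and 44.9 CPM. The next gene, MGS1, a DNA-dependent ATPase, rose from 41.3, 42.7 and 39.7 CPM to 70.7, 58.4 and 64.1 CPM (0.64, adjusted p = 0.000326). PPN2 was also below WT in the STH1-AID control, at 56.9, 72.1 and 57.6 CPM, where RAP1 is untagged. The RAP1-AID control libraries still lay below all of these (difference -0.40, adjusted p = 0.0421). On the other side, that of the cassette, IES2 (0.01) and PEX17 (-0.14) did not pass. Of the genes around LEU2, NFS1 (-0.08) and DCC1 (-0.07) did not pass, nor did the Ty element gene YCL020W (0.26). The overlapping Ty gene YCL019W was higher (1.10, adjusted p = 7.42e-06), but its reads are shared among Ty copies.

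Across the genome, 5742 protein-coding genes were tested. At an adjusted p-value below 0.05 and any fold, 1302 genes were higher in the RAP1-AID control than in WT (22.7% of those tested) and 1267 were lower (22.1%). Past a 2-fold difference, 382 were higher (6.65%) and 181 lower (3.15%). The libraries of the 2 groups did not overlap in CPM for 3240 genes, 56.4% of those tested. The median log2 fold change over all genes was -0.01. Scaling by the total library size alone moved it to 0.17 and shifted the split toward higher calls, to 2068 higher and 633 lower at any fold and to 497 higher and 126 lower past 2-fold. Values below are therefore to be read against the median of all genes under the same scaling. Counts of list members called are likewise to be read against the shares of all genes given above.

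**Figure D2:**
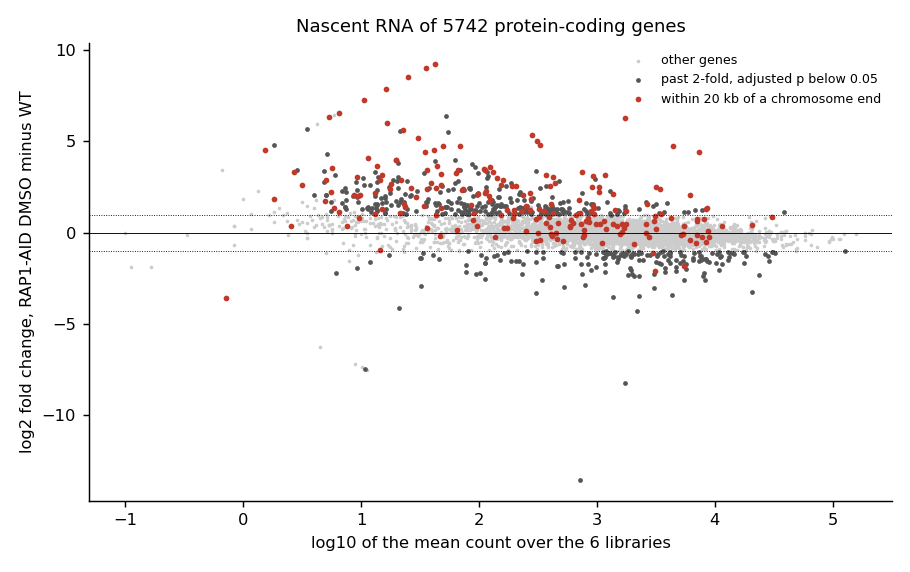
Each point is 1 of the 5742 genes tested, by the log10 of its mean count over the 6 libraries and its log2 fold change, RAP1-AID control minus WT. Dark points passed an adjusted p below 0.05 and a 2-fold difference (382 higher, 181 lower). Red points are the 201 genes tested within 20 kb of a chromosome end, most of which lie above 0, with a median of 1.29.

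The largest increases were led by genes that WT cells barely transcribe. COS12, a membrane protein gene of the subtelomeric COS family (chromosome VII, 2790-3932), measured 0.626, 0.836 and 0.935 CPM in WT and 24.2, 32.5 and 22.5 CPM in the RAP1-AID control, a rise of 5.03 (SE 0.29, adjusted p = 2.08e-10). IMD2, an IMP dehydrogenase of guanine nucleotide synthesis (chromosome VIII, 554396-555967), went from 15.3, 11.5 and 14.6 CPM to 391, 331 and 409 CPM (4.77, SE 0.23, adjusted p = 1.06e-11). Both genes lie within 10 kb of a chromosome end, and in both the groups stood far apart. STE3, which encodes the receptor that alpha cells use to sense a-factor, rose from 0.0522, 0.176 and 0.0519 CPM to 3.78, 5.92 and 4.45 CPM (5.51, SE 0.52) although all strains are labelled MATa. DAN1, an anaerobic cell wall mannoprotein, had 3 counts over the WT libraries and 314 over the RAP1-AID libraries, a ratio of 93.6 after scaling (exact 95% interval 31.7 to 456, counting error only), at 4.57, 3.93 and 5.24 CPM. The other members of this group were YIR042C (5.34), YFL064C (4.81), the vitamin B6 gene SNZ3 (4.76), the Y′ element helicase YRF1-6 (4.41), MIP6, an RNA-binding protein (3.98), and the Ty gene YHR214C-C (6.29). The Ty gene measured 6.05, 0 and 0 CPM in WT and 124, 173 and 159 CPM in the RAP1-AID control, so that its WT level rests on 1 library and is 0 without it. YRF1-6, IMD2, SNZ3, COS12 and the Ty gene have close relatives, and RSEM divided reads among copies.

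The STH1-AID control was below the RAP1-AID control at 8 of these 10 genes, past the test in each. COS12 stood at 2.02, 1.33 and 1.94 CPM there and the difference between the 2 controls was 3.90 (SE 0.26, adjusted p = 1.71e-09, edgeR). IMD2 measured 88.1, 52.8 and 52 CPM in the STH1-AID control, between WT and the RAP1-AID control. DAN1 was an exception, with 17.9, 8.28 and 5.51 CPM in the STH1-AID control, above the RAP1-AID control (-1.20, adjusted p = 0.0135), and the difference between the controls did not pass for YHR214C-C (0.13, adjusted p = 0.898).

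Among the decreases, PHO84 was the largest after a Ty gene. It encodes the high-affinity phosphate transporter of the plasma membrane (chromosome XIII, 24037-25800). PHO84 measured 169, 154 and 189 CPM in WT and 0.629, 0.37 and 0.698 CPM in the RAP1-AID control, so that it fell by 8.21 on the log2 scale (SE 0.27, adjusted p = 3.88e-14). Its level in the STH1-AID control was intermediate, at 18.1, 15.5 and 10.5 CPM, and differed from both. The Ty gene YPR158C-C had counts in each WT library (134, 39.1 and 42.3 CPM) and 0 in all 3 RAP1-AID control libraries, which makes it at least 1591-fold lower against a floor of 3 counts over the group. It was at 0 in the STH1-AID control too.

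The other large decreases were of varied function. YGP1, a secreted glycoprotein induced by nutrient stress, fell from 221, 191 and 192 CPM to 21.5, 16.9 and 16.6 CPM (-3.45). HSP30, a stress-induced membrane protein that restrains the proton pump, fell from 406, 413 and 323 CPM to 51.1, 30.6 and 27.7 CPM (-3.38), and its relative YRO2 fell too (-3.54). TPO2, a polyamine exporter and among the more strongly transcribed genes here, dropped from 1851, 1760.2 and 1799 CPM to 199.6, 181 and 185 CPM (-3.26). It was low in the STH1-AID control too, at 90.8, 195 and 119 CPM, with no difference past the test between the controls (0.48, SE 0.44, adjusted p = 0.42). AQY2, a water channel, measured 22.9, 27.1 and 30.7 CPM in WT, 2.56, 2.22 and 3.41 CPM in the 3 RAP1-AID libraries and 36.2, 35.6 and 37.6 CPM in the STH1-AID control. NNR2, an enzyme that repairs damaged NADH, went from 44.1, 47.2 and 42.3 CPM to 6.25, 5.83 and 5.15 CPM (-2.95), and its difference from the STH1-AID control was -2.73. YDR222W (-4.30) and BTN2 (-3.03), a sorting factor for misfolded proteins, complete the group.

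**Figure D3:**
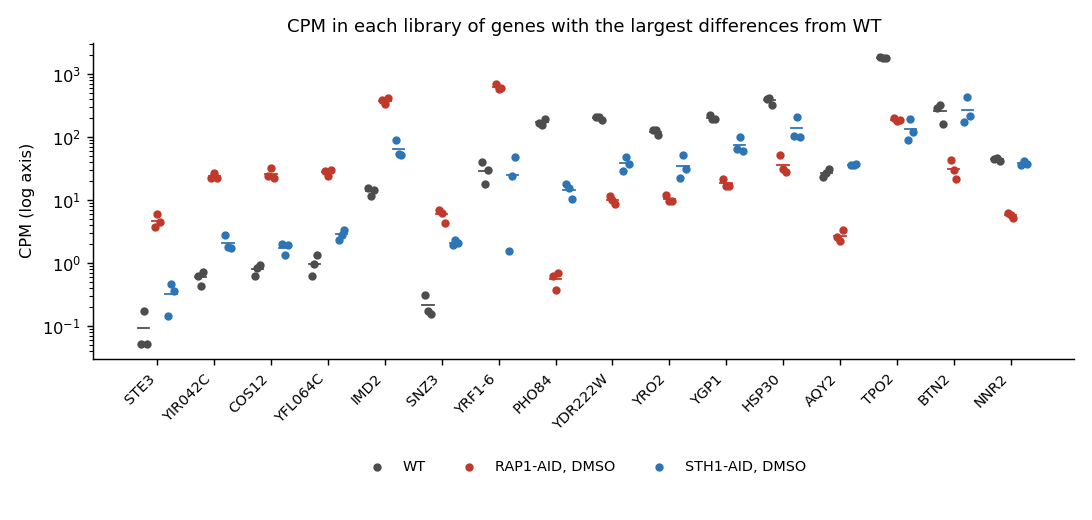
CPM in each library (points, log axis) and the mean of 3 (short lines) for 16 of the 20 genes with the largest differences between the RAP1-AID control and WT. DAN1, MIP6 and the Ty genes YHR214C-C and YPR158C-C are not drawn. STE3, COS12, YIR042C and YFL064C were high in the RAP1-AID libraries alone among these 3 groups, PHO84 fell in the order WT, STH1-AID and RAP1-AID, and AQY2 and NNR2 were low in the RAP1-AID libraries alone.

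Among the gene lists with at least 10 members tested, genes near chromosome ends had the highest median. Of 246 protein-coding genes within 20 kb of an end, 201 passed the filter on low counts, 10 of the other 45 had no count in the 6 libraries, and none of the 45 had more than 15. The filter was applied over all 21 libraries, so a gene silent in WT could pass it through libraries in which it was high. Such a gene could only be called higher, and the counts and medians below include genes of this kind. At any fold 145 of the 201 were higher and 10 lower, and past 2-fold 110 were higher and 3 lower. Their median log2 fold change was 1.29, against -0.01 for all genes, and 1.47 against 0.17 when libraries were scaled by total size. The medians of the 3 RAP1-AID control libraries, each set against the WT mean, were 1.29, 1.19 and 1.16. These 110 genes made up 28.8% of all genes higher past 2-fold, while genes within 20 kb made up 3.50% of the genes tested.

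The size of the difference declined with distance. The median was 2.13 for the 46 genes within 5 kb, 2.07 for the 44 genes from 5 to 10 kb and 0.86 for the 111 genes from 10 to 20 kb. It was 0.24 from 20 to 30 kb, 0.10 from 30 to 40 kb and 0.07 from 40 to 50 kb, and then lay near that of all genes, at 0.01 from 50 to 100 kb and -0.03 beyond 100 kb. Of the genes within 5 kb, 33 were higher past 2-fold, as were 30 from 5 to 10 kb and 47 from 10 to 20 kb. The comparison against the STH1-AID control shares the RAP1-AID libraries with the one against WT. Its medians in the 3 classes of distance nearest the ends were 1.27, 0.93 and 0.34. Over the 201 genes that comparison called 106 higher and 13 lower at any fold, against a background of 18.7% and 17.1% of all genes. The STH1-AID control itself had a median of 0.53 above WT over these genes and the RAP1-AID/STH1-AID control one of 0.98. The comparisons against WT all use the same WT libraries, which the comparison between the RAP1-AID and STH1-AID controls does not share.

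**Figure D4:**
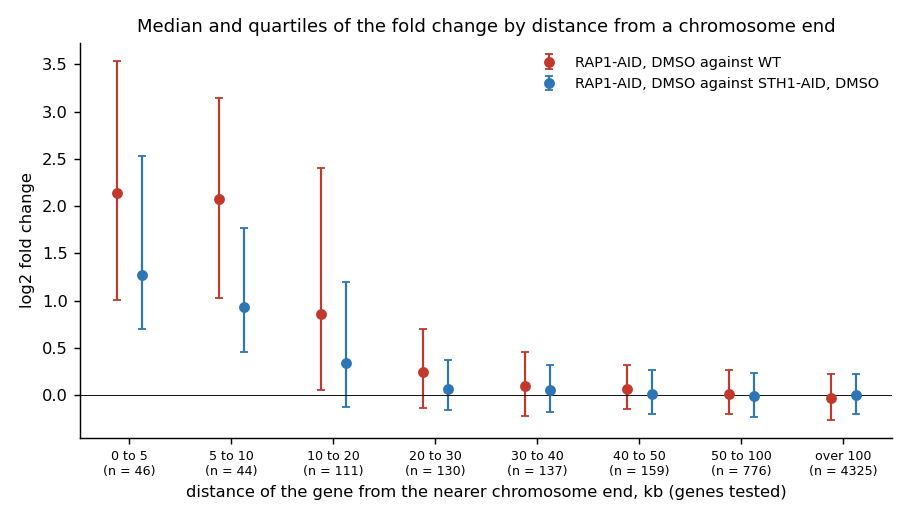
Points are medians of the log2 fold change and bars run from the lower to the upper quartile over genes, by distance of the gene from the nearer chromosome end. The RAP1-AID control is set against WT (red) and against the STH1-AID control (blue). In both, the medians were highest within 10 kb (2.13 and 2.07 against WT, 1.27 and 0.93 against the STH1-AID control) and near 0 beyond 50 kb.

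The rise was spread over nearly all ends. Of the 32 chromosome arms, 31 had at least 1 gene within 20 kb that was higher past 2-fold, the left arm of chromosome XVI being the exception. The median over the genes of an arm was above 0 in 30 arms and above 1 in 22. It was highest at the left end of chromosome VI, where all 11 genes tested were higher past 2-fold with a median of 4.76, and lowest at the right end of IX, at -0.10. The left end of XIII had the other median below 0, at -0.03. An arm had between 1 and 11 genes tested. Beyond 20 kb the medians of the 16 chromosomes lay between -0.07 and 0.07.

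Individual genes near the ends show the scale of the change. YDR541C, a putative reductase 11.2 kb from the right end of chromosome IV, whose counts were whole numbers in all 6 libraries, measured 2.82, 3.65 and 3.38 CPM in WT, 29.2, 31.3 and 28.5 CPM in the 3 RAP1-AID libraries and 5.92, 5.15 and 6.14 CPM in the STH1-AID control (3.17 against WT, SE 0.15, adjusted p = 5.29e-12). YIR042C rose from 0.626, 0.44 and 0.727 CPM to 22.7, 27.2 and 22.7 CPM, and YFL064C from 0.626, 0.968 and 1.35 CPM to 29.4, 23.7 and 29.7 CPM. No WT library overlapped a RAP1-AID control library in these 3 genes. YFR057W, the last gene on the right arm of VI (chosen after its values were seen), had 0 counts in the WT and STH1-AID control libraries and 3.06, 5.13 and 2.97 CPM in the RAP1-AID control. It is 1 of 8 tested genes with 0 counts in all WT libraries, for which the rise against a floor of 3 counts over the group was at least 1.42 to 6.23 on the log2 scale. With these genes at their bound the median of the 201 stayed at 1.29.

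Not every gene near an end was higher. The 10 that were lower were DIA1, NRE1, PCA1, YPR195C, RPN12, COS7, ERG13, GTT1, HXK1 and MRC1 (all named after their values were seen). Of these COS7, GTT1, HXK1, MRC1 and YPR195C did not pass under total library size, and COS7, HXK1 and YPR195C also lost the call without single libraries (adjusted p of up to 0.102, 0.233 and 0.0608). PCA1, a cadmium exporter, was 183, 201 and 189.8 CPM in WT and 98.5, 76.8 and 95.3 CPM in the RAP1-AID control, while the STH1-AID control, at 197, 172 and 202 CPM, overlapped WT. ERG13, of sterol synthesis, and RPN12, of the proteasome, belong to gene lists described below.

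Reads shared between related genes touch this group. At least 1 of the 6 counts was divided in 104 of the 201 genes (51.7%), against 8.03% of all genes tested. For 97 of the 201 genes every count in the 6 libraries was a whole number, and of these 60 were higher and 8 lower at any fold, 38 were higher past 2-fold, and the median was 0.63. For the 104 genes with at least 1 divided count, 85 were higher and 2 lower, 72 were higher past 2-fold, and the median was 2.10. Genes averaging 100 counts or more over the 21 libraries had a median of 0.83 (131 genes, 92 higher and 9 lower at any fold). Those below it had one of 2.62 (70 genes, 53 higher and 1 lower).

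The chromosome ends hold the repeats that Rap1 binds, and 21 of the 32 ends had a match to the Rap1 motif in their outer 300 bases in the reference. The motif searched was CACCCNNACA, on both strands. The outer 60 bases of the left arm of chromosome VII (chrVII:1-60, plus strand, RefSeq, build R64), the arm of COS12, are shown with both matches in capitals, beside the outer 60 of the left arm of VI (chrVI:1-60), which has no match there or in its outer 300.
VII left end: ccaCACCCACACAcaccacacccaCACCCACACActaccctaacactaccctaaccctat
VI left end: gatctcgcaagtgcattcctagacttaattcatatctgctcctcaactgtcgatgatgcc
The left arm of VI had the highest median of all arms, and the left arm of XIV, at 2.90 with 9 of 9 genes higher, had no match in its outer 300 bases either. The reference may stop short of the repeats at such an end. A missing match there therefore does not show that the cells lack Rap1 sites at that end, and binding was not measured.
The promoters of genes within 20 kb, taken as the 500 bases before the gene start, held a match in 1.99% of cases, against 2.20% of the promoters of all genes tested.

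Most genes of the silencing machinery differed by less than 2-fold. SIR3, whose product spreads along silenced chromatin, fell from 167, 155 and 170.2 CPM to 136, 118 and 129 CPM (-0.37, adjusted p = 0.000862), and SIR4, its partner, fell by 0.26 (adjusted p = 0.0158). Under total library size neither passed (-0.18 for SIR3 and -0.078 for SIR4), and SIR4 did not pass without 1 WT or 1 RAP1-AID library (replicate 1 and replicate 2, adjusted p = 0.0581 and 0.0546). SIR2, the histone deacetylase, was at -0.20 and SIR1, which acts at the mating cassettes, at 0.24, and neither passed. SAS2, a histone H4 acetyltransferase that sets the boundary of silenced regions, had the largest difference, from 30.4, 30.1 and 35 CPM to 12.7, 17.3 and 15.4 CPM (-1.07, adjusted p = 1.2e-06). Its level in the STH1-AID control was 31.9, 30 and 34.5 CPM, overlapping WT. YKU80, of the Ku complex at telomeres (0.44), and EST2, the catalytic subunit of telomerase (0.59), were higher. RIF1 (-0.26, adjusted p = 0.0527), RIF2 (0.37), YKU70 (0.16), ESC1 (-0.30) and EST1 (0.14) did not pass. RIF1 (adjusted p = 0.0409) and ESC1 (0.0221) passed without replicate 1 of the RAP1-AID control. In all, 2 of the 12 were higher and 3 lower, close to the 22.7% and 22.1% of all genes, and the median was -0.03.

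Mating-type genes were checked against the MATa label. HMLALPHA1 at the silent cassette HML had 0 counts in all 6 libraries, and HMLALPHA2 (-0.39), HMRA1 (-0.22) and HMRA2 (0.49) did not pass, with reads that the cassettes share with MAT. HMRA2 passed without replicate 2 of WT (1.00, adjusted p = 0.00548). Alpha-specific genes were not all silent. SAG1, the alpha-agglutinin, was at 33.3, 31.1 and 27.5 CPM in WT and 57.2, 56.5 and 58.3 CPM in the RAP1-AID control (0.90, adjusted p = 1.78e-06), whereas MF(ALPHA)1, a pheromone precursor, reached at most 0.378 CPM, with 1 count over the WT libraries and 16 over the RAP1-AID libraries (ratio 14.3 after scaling, exact 95% interval 2.22 to 600.1, and adjusted p = 0.0102, edgeR, or 0.0544 without replicate 1 of the RAP1-AID control). MF(ALPHA)2 had 0 counts in WT and 4 in the RAP1-AID control, which is at least 1.19-fold against the floor, and did not pass.

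Among the a-specific genes and those of the pheromone response more members were higher than lower. Of 7 a-specific genes, 5 were higher at any fold, 3 of them past 2-fold, and none was lower (median 1.04). STE2, the receptor for alpha-factor, rose from 353, 215 and 303 CPM to 457, 533 and 554 CPM (0.83, adjusted p = 0.0015), without overlap. MFA2, an a-factor precursor (1.60), AGA2, the binding subunit of a-agglutinin (1.45), ASG7 (1.82) and STE6, the a-factor exporter (0.49), were higher too, and MFA1 (1.04) and the protease BAR1 (0.19) did not pass. In the STH1-AID control STE2 measured 173, 201 and 223 CPM. The median of the 7 genes against WT was 0.50 in the RAP1-AID/STH1-AID control and -0.01 in the STH1-AID control.

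Of the 21 pheromone response genes, 10 were higher, 5 of them past 2-fold, and 3 were lower (median 0.44). FUS1, a membrane protein needed for cell fusion, rose from 6.68, 4.27 and 3.53 CPM to 30, 27.8 and 27.3 CPM (2.56, SE 0.18, adjusted p = 1.6e-09), and stood at 10.7, 9.84 and 8.9 CPM in the STH1-AID control. SST2, which shuts the receptor's G protein off, rose by 1.64, AGA1, the anchor of a-agglutinin, by 1.3, and FUS3, the MAP kinase, by 0.79. STE11, a kinase further up the cascade, fell by 0.53. Against the STH1-AID control, 10 of the 21 were higher and none lower, where 18.7% and 17.1% of all genes were. The RAP1-AID/STH1-AID control, which also carries the degron on Rap1, had a median of only 0.10 against WT over these genes. That of the STH1-AID control was -0.002. The motif of Ste12, the factor of this response, was searched as TGAAACA and was found in 15 of the 21 promoters (71.4%) and in 7 of 7 a-specific ones, against 688 of 5728 promoters of all genes (12%). FUS1 has 2 matches in its promoter. The one farther from the gene start is shown within chrIII:71591-71647 (plus strand), with the motif in capitals.
FUS1: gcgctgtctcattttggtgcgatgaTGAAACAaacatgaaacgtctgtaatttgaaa

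The ribosomal protein genes, the best known targets of Rap1, did not move together. Of 137 tested, 16 were higher and 11 lower at any fold, below the share of all genes in each direction, and past 2-fold 2 were higher and 1 lower. Their median was 0.05, and the medians of the 3 RAP1-AID control libraries against the WT mean were -0.09, 0.36 and -0.14, so that the second replicate stood apart. RPS10A shows this pattern, with 124, 98.2 and 97.6 CPM in WT and 76, 130.5 and 76.5 CPM in the RAP1-AID control. RPL43B (-0.19), RPL40B (0.00) and RPS10A (-0.18) did not pass. Without that second replicate 8 of the 137 were higher and 27 lower, with a median of -0.13, and RPS10A was lower and passed (-0.48, adjusted p = 0.0103). Under total library size 42 were higher and 7 lower. The genes that passed with all libraries were RPS9A, which rose from 25.9, 27.9 and 24.8 CPM to 71.3, 74.8 and 52 CPM (1.33, adjusted p = 7.31e-09), RPL7B (1.07), RPP1A of the stalk (0.73), RPS22B (-1.08) and RPL21B (-0.84), among others. RPS9A and RPL7B were also above WT in the STH1-AID control (69.7, 64.4 and 59.8 CPM of RPS9A and 44.4, 35.4 and 36.1 CPM of RPL7B). RPS22B was not, at 31.6, 30 and 26.1 CPM there against 9.36, 10.5 and 11.5 CPM in the RAP1-AID control. Many of these genes have a close paralog, so their counts were divided by RSEM.

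Genes next upstream of a ribosomal protein gene and transcribed away from it were followed in the same way. No limit was set on the distance, and the gaps ran from 76 to 2653 bases, so not every pair need share a promoter region. Of 64 tested, 20 were higher and 15 lower at any fold, and 5 were higher and 1 lower past 2-fold (median 0.11), which is near the shares of all genes. YOR292C, divergent from RPS10A, rose from 13.5, 15.1 and 13.1 CPM to 28.7, 28.1 and 24.8 CPM (0.97, SE 0.15, adjusted p = 4.83e-05), while RPS10A did not pass with all libraries and was lower without the second replicate. In the STH1-AID control YOR292C measured 13.4, 20.7 and 20.8 CPM, and the RAP1-AID control was above it (0.57, adjusted p = 0.00643). AAC3, an ADP/ATP carrier of low oxygen (1.79), YJR146W (1.69), YGR117C (1.25) and PLM2 (0.70) were higher, and YOR062C (-0.88) lower. The region between RPS10A and YOR292C holds 1 match to the Rap1 motif, shown in capitals within chrXV:866733-866792 on the strand of RPS10A.
RPS10A and YOR292C: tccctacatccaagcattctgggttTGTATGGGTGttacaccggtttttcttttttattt
Such a match was found in 29 of 137 ribosomal protein promoters (21.2%) and in 11 of 64 divergent ones (17.2%), against 126 of 5728 (2.20%) of all.

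Rap1's partners and other general regulatory factors differed by less than 2-fold. Besides RAP1 itself only CRF1, a corepressor of ribosomal protein genes, was higher (0.80, adjusted p = 0.00485) among the 12 listed, and REB1 (-0.37) and MCM1 (-0.77) were lower. REB1 did not pass under total library size (-0.19) or without replicate 2 of the RAP1-AID control (-0.28). FHL1 (-0.09), IFH1 (-0.13), SFP1 (0.21), HMO1 (-0.19), GCR1 (0.15), GCR2 (-0.22), TBF1 (-0.01) and ABF1 (0.26) did not pass. Without 1 RAP1-AID library HMO1 (replicate 2, adjusted p = 0.0287) and GCR2 (replicate 3, 0.0363) passed as lower. Of 122 ribosome biogenesis genes, 7 were higher (5.74%, against 22.7% of all genes) and 26 lower (21.3%, near the 22.1% of all genes), none past 2-fold (median -0.11). Under total library size 22 were higher and 9 lower (median 0.08). Of 11 translation elongation genes 4 were higher and 1 lower. ANB1, the hypoxic form of eIF5A, was the one past 2-fold (1.25, 0.748 and 1.3 CPM to 9.9, 8.83 and 9.52 CPM, 3.11), and in the STH1-AID control it was at 11.8, 5.89 and 4.11 CPM.

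Glycolytic genes, further targets of Rap1, were mostly lower. Of 21, 12 were lower and 3 higher at any fold (median -0.45, and -0.27 under total library size). PGI1, phosphoglucose isomerase, fell from 3091, 2734 and 3079 CPM to 1703, 1550.3 and 1561 CPM (-0.89, adjusted p = 4.36e-05), and so did GPM1, phosphoglycerate mutase (-0.78), ADH1, alcohol dehydrogenase (-0.80), GLK1, glucokinase (-0.83), and ENO1, an enolase with a close paralog (-1.06). PDC5, a minor pyruvate decarboxylase, rose by 1.07. The STH1-AID control also had 2034, 1839 and 1914 CPM of PGI1, and for ENO1 it overlapped WT, at 1266, 1108 and 1033 CPM against 1213, 1008 and 1148 CPM. Its median over the list was -0.25 against WT, and the median difference of the RAP1-AID control from it was -0.07. Against that control 2 of the 21 were higher and 7 lower, where 18.7% and 17.1% of all genes were.

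**Figure D5:**
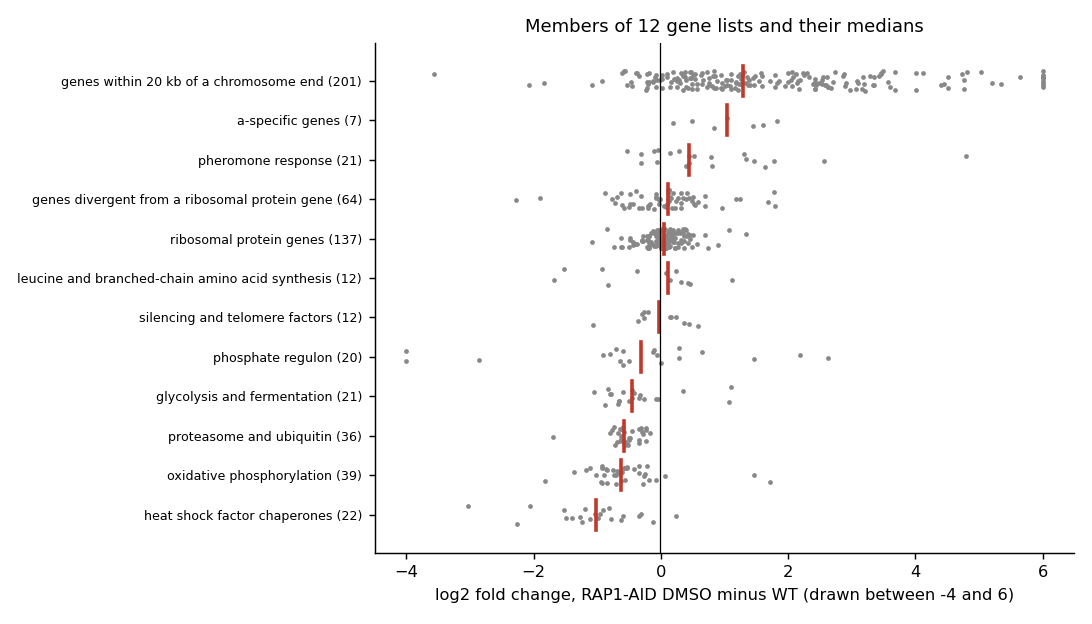
Each point is the log2 fold change of 1 gene, RAP1-AID control minus WT, in 12 gene lists (number tested in brackets). Red marks are medians, the black line is the median of all genes tested (-0.01), and values beyond -4 or 6 are drawn at the edge. The lists ran from a median of 1.29 near chromosome ends to -1.02 for the heat shock factor chaperones, with the ribosomal protein genes at 0.05.

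Chaperone genes driven by the heat shock factor Hsf1 had the lowest median of all lists. Of 22, 18 were lower and none higher at any fold, and 11 were lower past 2-fold (median -1.02). HSP78, a mitochondrial disaggregase, fell from 239, 284 and 192 CPM to 60.3, 45.7 and 43.5 CPM (-2.26, SE 0.29, adjusted p = 3.4e-06). HSP104, its cytosolic counterpart, was at 896, 1007 and 581 CPM in WT and 275, 188 and 138 CPM in the RAP1-AID control (-2.05), with a wide spread among the libraries of each group but no overlap. SSC1, the mitochondrial Hsp70 (-1.27), HSC82, an Hsp90 (-0.81), SSE1, a nucleotide exchange factor (-0.62), and BTN2 (-3.03) were lower as well. HSF1 itself measured 480.1, 426 and 439 CPM in WT and 293, 288 and 315 CPM in the RAP1-AID control (-0.59, adjusted p = 5.2e-06; chosen after its values were seen). The STH1-AID control had 196, 337 and 229 CPM of HSP78, and its chaperone median was -0.12 against WT. Set directly against that control, 15 of the 22 were lower in the RAP1-AID control and none higher, where 17.1% and 18.7% of all genes were.

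The Hsf1 motif was searched as GAANNTTCNNGAA on both strands, and 11 of the 22 promoters held it (50.0%), against 84 of 5728 (1.47%). The promoter of HSP78 (chrIV:974453-974515, minus strand) has 2 overlapping matches, 1 per strand, which together are in capitals.
HSP78: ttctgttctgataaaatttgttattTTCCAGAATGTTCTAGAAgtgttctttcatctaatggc

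Every gene of the proteasome and ubiquitin list was at a lower level in the RAP1-AID control. Of 36, 33 were lower at any fold and none higher, with 1, UBI4, past 2-fold, and in all 36 the libraries of the groups did not overlap, against 56.4% of all genes. The median was -0.58 (-0.39 under total library size) and values ran from -1.69 to -0.17. RPT2, an ATPase of the proteasome base, fell from 368, 385 and 413 CPM to 251, 251 and 248 CPM (-0.64, SE 0.07, adjusted p = 3.46e-07). RPT3, another ATPase of the ring (-0.59), RPN6 of the lid (-0.64) and PRE7 of the core (-0.74) fell by similar amounts, and UBI4, the polyubiquitin gene, from 345, 440.0 and 454 CPM to 140.0, 117 and 126 CPM (-1.69). RPN4, the transcription factor of these genes, was lower itself (319.8, 337 and 288 CPM in WT and 180.4, 172 and 201 CPM in the RAP1-AID control, -0.77, adjusted p = 0.00018; chosen after its values were seen). In the STH1-AID control RPN4 was at 302, 383 and 353 CPM and RPT2 at 321, 331 and 317 CPM. Against that control 28 of the 36 were lower in the RAP1-AID control and none higher, where 17.1% and 18.7% of all genes were. The median was -0.33.

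The Rpn4 motif, GGTGGCAAA on either strand, was present in 29 of the 36 promoters (80.6%) and in 97 of all 5728 (1.69%). That of RPT2 is shown from chrIV:437891-437949 (plus strand), with the motif in capitals.
RPT2: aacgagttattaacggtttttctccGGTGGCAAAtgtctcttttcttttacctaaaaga

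Oxidative phosphorylation genes of the nucleus were lower as well. Of 39, 25 were lower and 1 higher at any fold, and 5 lower past 2-fold (median -0.63, and -0.45 under total library size). ATP2, a catalytic subunit of the ATP synthase, went from 895, 877 and 1117 CPM to 513, 483 and 512 CPM (-0.94), and ATP3 (-0.90), ATP7 (-0.85) and ATP14 (-0.93) of the same complex fell too. CYC1, cytochrome c, fell from 9.39, 12.4 and 9.71 CPM to 4.66, 5.04 and 4.85 CPM (-1.12, adjusted p = 6.65e-06) and overlapped WT in the STH1-AID control, at 11.2, 12.4 and 14.6 CPM. ATP2 stood at 532, 576 and 611 CPM there, and its difference between the controls did not pass (-0.19, adjusted p = 0.286). The STH1-AID control's median over the list was -0.40 against WT. Set directly against that control, 1 of the 39 was higher in the RAP1-AID control and 6 were lower, where 18.7% and 17.1% of all genes were. The median of that difference was -0.20.

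Synthesis of leucine and its relatives split in 2 directions. LEU1, which carries out the second step of leucine synthesis, fell from 969.6, 741 and 834 CPM to 279, 251 and 259 CPM (-1.69, SE 0.11, adjusted p = 9.69e-10). OAC1, a mitochondrial carrier that exports a leucine precursor, fell by 1.53, and BAT1, the mitochondrial aminotransferase (-0.93), ILV3 (-0.84) and ILV2 (-0.38) fell as well. BAT2, the cytosolic aminotransferase, rose from 160.4, 173 and 180.0 CPM to 376, 399.9 and 336 CPM (1.11), and ILV6 (0.46), LEU3 (0.42), ILV1 (0.32) and LEU4 (0.24) were higher by less. ILV1 did not pass without replicate 3 of the RAP1-AID control or without replicates 1 or 2 of WT (adjusted p = 0.0923, 0.0542 and 0.0926). LEU9 (0.14) and ILV5 (0.08) did not pass. The lower genes were also low in the STH1-AID control, which is labelled with the same construct, with 246, 199.7 and 224 CPM of LEU1 and 114, 112 and 107 CPM of OAC1. The difference between the controls did not pass for LEU1 (0.24, SE 0.11, adjusted p = 0.102), BAT1 (0.08) or ILV3 (0.02). Over the 12 genes tested, 6 were higher in the RAP1-AID control than in the STH1-AID control and 0 lower, where 18.7% and 17.1% of all genes were. None of the 6 was past 2-fold, and the median of the list was 0.24.

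Leu3 is the activator of these genes, and its motif was searched as CCGGNNCCGG. It was in 4 of the 12 promoters (33.3%), those of LEU1, BAT1, ILV2 and ILV5, and in 15 of 5728 (0.262%). The matches of LEU1 (chrVII:478835-478894, minus strand) and BAT1 (chrVIII:517360-517419, plus strand), both lower in the RAP1-AID control, are in capitals.
LEU1: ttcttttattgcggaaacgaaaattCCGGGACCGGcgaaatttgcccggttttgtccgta
BAT1: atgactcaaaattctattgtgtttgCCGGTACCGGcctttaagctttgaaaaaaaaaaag

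Arginine synthesis genes set the 2 controls apart. ARG1, argininosuccinate synthetase, was at 83, 85.5 and 108 CPM in WT, 18.6, 17.4 and 25.6 CPM in the 3 RAP1-AID libraries and 184, 181 and 204 CPM in the STH1-AID control, which makes the RAP1-AID control the lowest and the STH1-AID control the highest (-2.17 against WT, adjusted p = 3.96e-07, and -3.20 against the STH1-AID control, adjusted p = 6.5e-09). ARG3, ornithine carbamoyltransferase, went from 17.1, 18.4 and 20.2 CPM to 3.15, 4.3 and 4.06 CPM (-2.27). Of the 46 genes of amino acid synthesis outside the branched-chain pathway, 6 were higher and 12 lower against WT (median -0.05, and 0.13 under total library size). Against the STH1-AID control 1 was higher and 22 lower, where 18.7% and 17.1% of all genes were.

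The phosphate regulon ran over a wide range, from -8.21 to 2.63. Of its 20 genes, 10 were lower and 3 higher at any fold, with 3 each way past 2-fold (median -0.31). Besides PHO84, VTC3 (-0.91) and VTC4 (-0.70) of the polyphosphate polymerase fell, VTC4 from 299.5, 339 and 319 CPM to 209, 186 and 195 CPM. SPL2 (-4.14), at no more than 2.55 CPM in WT, and the phosphatase PHM8 (-2.86) were the other decreases past 2-fold (both named after their values were seen). PHO11 (2.63) and PHO12 (1.47), 2 acid phosphatase genes near chromosome ends, were higher, PHO11 from 2.56, 1.94 and 1.19 CPM to 10.9, 13.8 and 10.6 CPM. PHO5, the main acid phosphatase, did not pass (0.00, adjusted p = 0.985). The Pho4 motif CACGTG, which other factors also bind, was in 15 of the 20 promoters (75%) and in 360 of 5728 (6.28%). PHO84 has 2 in the stretch chrXIII:26206-26261 (minus strand), both in capitals.
PHO84: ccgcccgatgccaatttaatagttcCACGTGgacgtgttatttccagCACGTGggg

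The remaining lists are given by their counts, to be read against 22.7% higher and 22.1% lower of all genes. General stress genes, 35 in all, gave 11 higher and 14 lower (median -0.01), with GSY1, a glycogen synthase (1.34), and the reticulon RTN2 (1.27) rising and YGP1, HSP42 (-2.38) and HSP104 falling. Drug efflux and membrane stress genes gave 8 higher and 4 lower of 16. Of these PDR15, a drug pump, rose from 77.4, 62.7 and 77.6 CPM to 247, 198 and 202 CPM (1.57), and was also above WT in the STH1-AID control (208, 188 and 165 CPM). Ergosterol synthesis genes were lower in 13 of 26 and higher in 3 (median -0.28), which became 7 of 26 each way under total library size, and ERG5 fell by 0.81. Histone genes were lower in 6 of 11 and higher in 1 (median -0.38), with 3 lower under total library size or without replicate 1 or 3 of the RAP1-AID control or replicate 1 of WT.

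Methionine and sulfate genes gave 8 higher and 12 lower of 30, hexose transport genes 6 and 5 of 18, with invertase SUC2 at 1.05 and HXT4 at -1.23, amino acid permeases 5 and 7 of 18, and the iron regulon 7 and 8 of 29. Zinc and copper uptake genes gave 3 higher and 2 lower of 10, and SCF ubiquitin ligase genes, whose complex osTIR joins, 2 and 2 of 8. RSC subunits gave 2 higher and 5 lower of 17, with RSC4 at -0.66, and Pol II subunits 2 and 2 of 12, in neither case past 2-fold.

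Set against the STH1-AID control over all genes, 208 were higher past 2-fold in the RAP1-AID control (3.62%) and 103 lower (1.79%). The largest differences were MET17, which was near 0 in the STH1-AID libraries, YRF1-6, COS12, HFM1 and STE3 above, and the Ty gene YML045W-A, PHO84, AQY2, YLL053C and ARG1 below. YLL053C, which lies beside AQY2, followed it, at 1.38, 1.9 and 1.48 CPM in the 3 RAP1-AID libraries, 8.51, 8.58 and 10.5 CPM in WT and 15.5, 16.4 and 18.1 CPM in the STH1-AID control. YML045W-A had 0 counts in the RAP1-AID control and was at least 1027-fold lower there than in the STH1-AID control, and WT had 1 count in all. HFM1, a DNA helicase of meiotic recombination, had 11.7, 8.22 and 10.1 CPM in WT, 79.4, 81.2 and 67.4 CPM in the 3 RAP1-AID libraries and 4.33, 6.25 and 5.33 CPM in the STH1-AID control. Its rise of 2.93 against WT (SE 0.15, adjusted p = 3.58e-11) was thus 3.84 against the STH1-AID control, where the gene was below WT. In the RAP1-AID/STH1-AID control, which carries the same degron on Rap1, HFM1 measured only 5.61 to 7.4 CPM, and STE3 1.1 to 1.48 CPM, against 13.8 to 16.2 CPM for COS12.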

How the data were processed

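Nascent RNA-seq was analysed for WT, RAP1-AID with DMSO and, beside them, STH1-AID with DMSO, 3 biological replicates each by their labels. The authors purified Pol II through Rpb3-3xFLAG and sequenced the attached RNA by strand. The submitters' processing notes name cutadapt 1.9.1, STAR 2.5.2a, RSEM 1.3.0, DESeq2 1.12.3 and build R64. The values used are the expected counts per gene that the authors deposited, not scaled to each other. A read that aligns to several genes is shared out by RSEM, which left 7.82% to 9.19% of the values per library as fractions of a read, so counts of paralogs, Ty genes and subtelomeric families carry an uncertainty that the replicate spread does not show. The TPM values that the authors deposited, which take gene length into account, were not used for any result. Reads carried no molecular identifier named in the methods. Every column of the table was matched to a sample.

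Expected counts were rounded and fitted with edgeR 4.0.16 in R 4.3.3. The fit used TMM factors, the filterByExpr filter with condition as the group, 1 coefficient for each of 7 conditions, all 21 libraries, 14 residual degrees of freedom, the quasi-likelihood test and Benjamini-Hochberg adjustment over 5742 protein-coding genes. Calls needed an adjusted p below 0.05, with or without a 2-fold limit. The table lists 7126 features, of which 6162 matched a RefSeq gene of build R64 and 964 did not. Fold changes are on the log2 scale, with a standard error from the fit. The precision comes from 3 libraries a group. Ratios of genes with 1 to 3 counts in a group have an exact Clopper-Pearson interval. The steps were tested on simulated data.

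The genes and lists were chosen with earlier results of these data known. The rule named the genes in the strain genotypes and the 2 genes on each side of RAP1 and LEU2, the 10 largest differences each way against WT and the 5 largest against the STH1-AID control (mean of at least 50 counts, no overlap of groups), up to 5 members of smallest adjusted p in each list and all members of lists of at most 12, of which the text gives those its results turn on, and RPL43B, RPL40B, RPS10A and YOR292C. Others are marked as chosen after their values were seen. Distances run from the nearer gene border to the chromosome end of the reference. Motifs were searched on both strands in the 500 bases before each of 5728 gene starts, taken from the RefSeq genome. A match is a description of the sequence only.

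The alternatives were DESeq2 size factors, total library size, a replicate block, no filter or a mean of at least 10 counts, only the 6 libraries, DESeq2's Wald test (version 1.42.0), an adjusted p of at most 0.01 (the limit in the study's methods), all features, and each library left out. The subsets of genes near chromosome ends by whole counts and by a mean of 100 counts were chosen after seeing the data.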

Additional observations from a re-analysis of the deposited data

Results flagged for a closer look

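In 40 genes the RAP1-AID control and the STH1-AID control moved in opposite directions against WT, each past the test, and the difference between the controls was tested directly and passed an adjusted p below 0.05 and a 2-fold limit in edgeR's quasi-likelihood fit. Both controls were set against the same WT libraries. On the log2 scale HFM1 was 2.93 above WT in the RAP1-AID libraries, while in the STH1-AID libraries it was at -0.91, and FDC1, a decarboxylase of phenolic acids, was at 2.53 and -0.88. MEI4 and ZIP2, of meiotic recombination, were at 1.44 and 1.52 with the degron on Rap1 and at -1.13 and -0.71 with it on Sth1. In the other direction ARG1 was at -2.17 and 1.04, ARG3 at -2.27 and 0.65, and YLL053C at -2.53 and 0.86. STE2 (0.83 and -0.54) and RPS22B (-1.08 and 0.40) belong to the same 40. The MET17 difference between the strains moves with these comparisons, and its part was not tested.

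Outside the protein-coding genes, 422 features passed the filter and were adjusted for multiple tests with all features. Of these, 91 were higher past 2-fold in the RAP1-AID control and 10 lower. Features named as open reading frames or other genes but absent from the reference made up 80 of the higher and 9 of the lower, of 340. Pseudogenes gave 5 higher and 0 lower of 10, and small nucleolar RNA genes 4 higher and 1 lower of 43.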

How the results depend on the processing

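The numbers of genes past 2-fold held within 1.5 times under every alternative run. With each library left out they ran from 357 to 393 higher and 173 to 182 lower against WT, from 1154 to 1212 higher and 1044 to 1143 lower at any fold, and from 190 to 220 higher and 82 to 115 lower against the STH1-AID control. Only total library size moved a count by more, to 2068 higher and 633 lower at any fold against WT. Correlations of same-numbered deviations were -0.016, 0.037 and 0.11 between WT and the RAP1-AID control, not over 0.1 in every pair. The main fit had no replicate block. The share of SNR19 was nevertheless highest in replicate 2 of WT (4.74%), the RAP1-AID control (4.93%) and the STH1-AID control (6.00%). These correlations therefore cannot show that libraries of the same replicate number share nothing. A replicate block gave 383 higher and 182 lower past 2-fold, and 1381 higher and 1449 lower at any fold. It put RPL40B at -0.0003. Under total library size 8 genes that had not passed changed sign without passing: DCC1 (0.11), FHL1 (0.097), IFH1 (0.052), NFS1 (0.11), PEX17 (0.045), RPL43B (0.0003), RPS10A (0.018) and TBF1 (0.17). So did the medians of RSC subunits (0.029), the iron regulon (0.11), other amino acid synthesis (0.13), ribosome biogenesis (0.080) and zinc and copper uptake (0.15), since that scaling raises the median of all genes from -0.01 to 0.17. RPL40B was at -0.0010 with no filter on low counts, and TBF1 at 0.011 with only the 6 libraries. With single libraries left out, the values ran from -0.13 to 0.0039 for FHL1, from -0.12 to 0.20 for IES2, from -0.13 to 0.13 for PHO5, from -0.18 to 0.13 for RPL40B, from -0.048 to 0.036 for TBF1 and from -0.16 to 0.014 for the iron regulon. The cause of these changes with single libraries was not tested. Of 153 named genes, 120 passed at any fold, and 11 of the 153 lost the call under at least 1 alternative, 8 of these with a library left out. Another 17 that had not passed did so under at least 1 alternative: ABF1, BAR1, ESC1, GCR1, GCR2, HIS3, HMLALPHA2, HMO1, HMRA2, ILV5, LEU9, RIF1, RIF2, RPB3, RPS10A, SFP1 and SIR1, of which ESC1, GCR2, HMLALPHA2 and RIF1 did so with the replicate block. The median of genes within 20 kb of an end stayed between 1.26 and 1.38 with each library left out. Genes near the count filter, multi-copy genes and differences smaller than the spread among 3 libraries are the limits of this comparison.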
